A study of Mus musculus with 8 samples.

Results

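The genes described here are p53 and 9 genes around it, the p53 inhibitors, cyclin G1, the sestrins and stress-induced growth arrest factors. They were taken by symbol from a fixed list of 10 names, and all 10 were among the 17276 genes of the deposited files. All 10 also passed the filter on low counts that left 11747 genes for testing. The study compared hepatocytes, the main metabolic cells of the liver, kept static with hepatocytes exposed to shear stress, the drag of a moving fluid along a cell surface. The cells of all 8 libraries came from male wild-type C57BL/6N mice of 6 to 8 weeks, with 4 libraries per group. No allele, drug or second treatment is named, and the labels give neither the strength nor the duration of the stress. Whether replicates are different animals, cultures or preparations is not stated, so the p-values reflect the spread among these 8 libraries alone, and that spread may be technical.

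The transcription factor p53, encoded by Trp53, is held at a low level in unstressed cells because the ubiquitin ligase MDM2 marks it for degradation, and MDM4 binds it and blocks its activating domain. DNA damage and other stresses release p53, which then induces Mdm2 itself, closing a feedback loop, and genes of cell cycle arrest, repair and metabolism such as Ccng1, Sesn1, Sesn2 and Gadd45a. This control acts mostly on the protein, which messenger RNA does not measure. Several of these genes also answer to other regulators: Ddit4 to hypoxia and glucocorticoids, Sesn3 to FOXO factors, and Sesn2, Ddit4 and Gdf15 to the amino acid and unfolded protein response factor ATF4. Sestrins and the Ddit4 product REDD1 restrain mTORC1, the kinase complex that drives growth, while GDF15 is a hormone that stressed tissues, the liver among them, release into the blood.

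Expression is given as normalised CPM (read counts per library scaled to a common total with TMM factors) and, where genes are compared with each other, as TPM, which is also divided by transcript length. Differences between the groups are given on the log2 scale, positive where shear stress was higher, with their standard error and the Benjamini-Hochberg adjusted p of the edgeR quasi-likelihood test over all 11747 genes, and a gene was called at an adjusted p under 0.05. Libraries held between 15067056 and 17935566 estimated counts. This comparison called 48.6% of all tested genes, 24.9% as higher and 23.7% as lower. With library totals in place of TMM factors the median log2 fold change over all genes was 0.22 higher, so the direction of a small difference rests on the scaling. Of 10 hepatocyte markers 6 fell and none rose, and their summed level was 85218 to 108655 CPM in static libraries and 58731 to 77588 CPM under shear stress. Summed levels of endothelial markers were 11.8 to 39.9 and 6.78 to 31.2 CPM, of stellate cell markers 6.12 to 12.5 and 7.33 to 10.4 CPM, and of lymphocyte markers 2.04 to 2.56 and 0.0566 to 0.470 CPM. Of the 9 macrophage markers in the files, 7, among them Clec4f and Adgre1, were under 1 CPM in every library, and the sum of 289.9 to 418 and 229 to 349 CPM was mostly Cd14, which hepatocytes also express. The cholangiocyte sum of 147 to 1332 and 239 to 1736 CPM was mostly Spp1, while Krt19 was under 1 CPM throughout. No marker in the files was at 0 in all 8 libraries, and the part of these levels in the results below was not tested. In bulk RNA, fewer cells of a type and less RNA per cell cannot be told apart.

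The sequences just before the starts of the 5 genes that were called are printed here because the results turn on these genes, which moved in both directions. Each run holds the 250 bases before the outermost of the RefSeq starts used, 5′ to 3′ on the strand of the gene, on GRCm38.p6. For Gdf15 this start, at 70632456, lies inside the gene bounds given below, which end at 70632470. The starts used for Trp53 and Ccng1 also lie inside their gene bounds. Capitals mark matches, on either strand, to the motifs searched: the CCAAT box (CCAAT), the GC box (GGGCGG), the E-box (CACGTG), the hypoxia core (ACGTG, which every E-box also holds), the C/EBP-ATF element (TGATGNAA), a FOXO motif (TGTTTAC), an AP-1 motif (TGANTCA), the octamer (ATGCAAAT) and the p53 half-site. The motifs were chosen with these sequences in view. The windows are chr10:59951771-59952020 (minus strand) for Ddit4, chr6:67037408-67037657 (minus) for Gadd45a, chr10:117710759-117711008 (minus) for Mdm2, chr8:70632457-70632706 (minus) for Gdf15 and chr9:14276051-14276300 (plus) for Sesn3.
Ddit4: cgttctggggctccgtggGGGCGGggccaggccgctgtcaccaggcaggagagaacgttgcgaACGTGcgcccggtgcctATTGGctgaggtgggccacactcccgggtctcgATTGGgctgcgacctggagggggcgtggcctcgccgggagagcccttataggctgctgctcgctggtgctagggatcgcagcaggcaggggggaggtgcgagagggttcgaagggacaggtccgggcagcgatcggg
Gadd45a: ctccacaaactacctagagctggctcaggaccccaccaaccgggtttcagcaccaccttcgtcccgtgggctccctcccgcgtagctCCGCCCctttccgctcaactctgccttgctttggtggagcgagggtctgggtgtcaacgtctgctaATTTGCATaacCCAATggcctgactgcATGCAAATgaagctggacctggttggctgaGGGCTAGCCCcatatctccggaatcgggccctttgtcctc
Mdm2: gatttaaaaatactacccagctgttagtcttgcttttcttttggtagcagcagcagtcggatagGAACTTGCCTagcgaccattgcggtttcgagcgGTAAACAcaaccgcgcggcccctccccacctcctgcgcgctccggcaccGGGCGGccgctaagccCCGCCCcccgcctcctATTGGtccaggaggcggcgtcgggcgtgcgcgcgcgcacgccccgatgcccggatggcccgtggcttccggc
Gdf15: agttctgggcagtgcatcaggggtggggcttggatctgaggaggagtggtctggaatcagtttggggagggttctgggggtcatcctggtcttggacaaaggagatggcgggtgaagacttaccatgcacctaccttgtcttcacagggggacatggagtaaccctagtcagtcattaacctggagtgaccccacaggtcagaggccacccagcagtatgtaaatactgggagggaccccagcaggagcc
Sesn3: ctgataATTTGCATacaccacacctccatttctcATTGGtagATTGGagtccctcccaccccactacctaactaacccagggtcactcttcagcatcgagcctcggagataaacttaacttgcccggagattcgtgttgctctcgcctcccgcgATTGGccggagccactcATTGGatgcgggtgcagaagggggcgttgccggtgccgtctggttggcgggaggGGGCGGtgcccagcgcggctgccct

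A CCAAT box match was present before 8 of the 10 genes, against 33.8% of 32851 RefSeq windows of the same length, and a GC box match before 6, against 32.7%. Since the motifs were chosen with these sequences in view, these shares are a description and were not tested. Only the outermost start of each of the 10 was counted. Its GC content ran from 41.6% for Mdm4 to 70% for Sesn1 and Ddit4. Only Mdm4 was below the median of 52.4% over all windows. The p53 half-site matched before 4 genes, Trp53, Mdm2, Ccng1 and Gadd45a, against 7.13% of all windows. Of these 4, Mdm2 was lower under shear stress, Gadd45a was higher, and Trp53 and Ccng1 were not called. The octamer, bound by POU factors, matched on both strands before Gadd45a and once before Sesn3, against 1.60% of windows, and these genes moved in opposite directions. Ddit4 held the hypoxia core (16.6% of windows) and Mdm2 the FOXO motif (3.17%), and neither the C/EBP-ATF element (3.45%), the AP-1 motif (6.75%) nor the E-box (6.02%) was found before the outermost start of any of the 10. No motif of the set was found in these windows of Gdf15 and Mdm4. Mdm4, Sesn1 and Gdf15 have a second annotated start, before which lay an AP-1 motif for Mdm4, a p53 half-site for Sesn1 and an E-box and a CCAAT box for Gdf15, among other matches for Sesn1. A match is a run of letters and not a bound site, and Mdm2 is known to have a p53-responsive promoter in its first intron that lies outside this window.

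**Figure D1:**
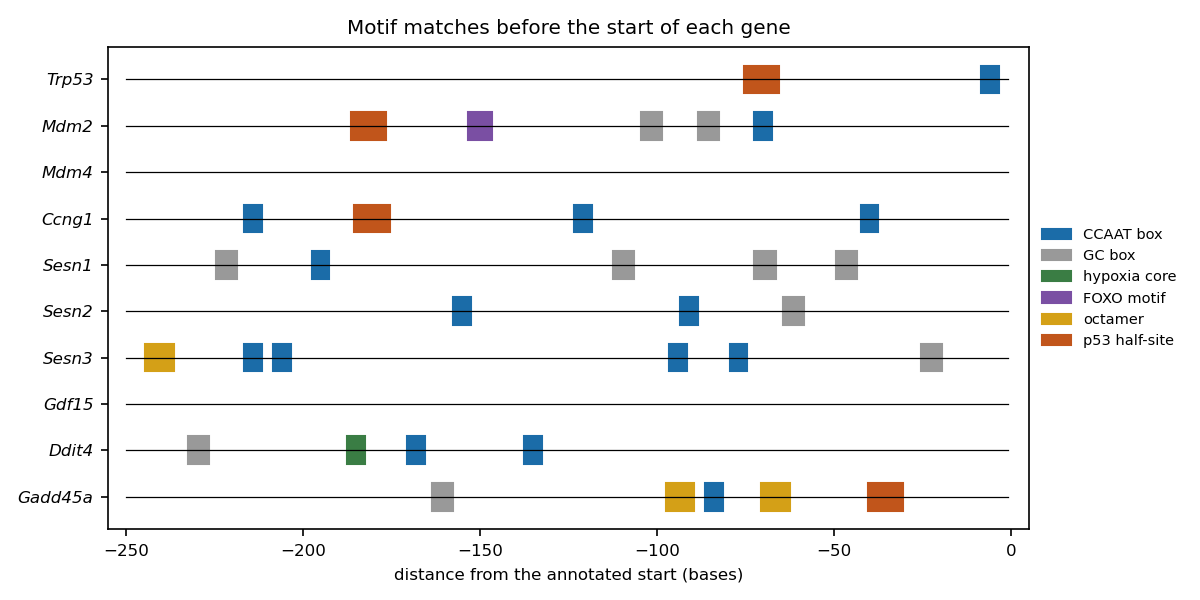
Motif matches in the 250 bases before the outermost RefSeq start used for each of the 10 genes, by distance from the start in bases; boxes are matches on either strand. The p53 half-site appears before Trp53, Mdm2, Ccng1 and Gadd45a, and no match lies before Mdm4 or Gdf15.

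Of the 10 genes, 5 were called, a share near the 48.6% of all tested genes. Ddit4 and Gadd45a were higher under shear stress, and Gdf15, Mdm2 and Sesn3 were lower. All 5 separated the groups without overlap, 2 upward and 3 downward, as did 45.3% of all tested genes (23.7% upward and 21.5% downward). DESeq2 called the same 5 genes, against 52.0% of genes (26.0% higher and 26.0% lower). Trp53, Ccng1, Sesn1, Mdm4 and Sesn2 were not called. With the replicate number as a block, Mdm4 and Sesn2 were also called, which made 7 of 10 (4 higher and 3 lower) against 61.1% of all genes (30.1% higher and 31.0% lower). These 7 moved one way in all 4 pairs, as did 68.9% of all genes. With library totals 6 of 10 were called (4 higher and 2 lower), against 48.5% of genes (35.4% and 13.1%). With the block and library totals 8 were called (6 higher and 2 lower), against 62.8% of genes (43.2% and 19.5%).

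**Figure D2:**
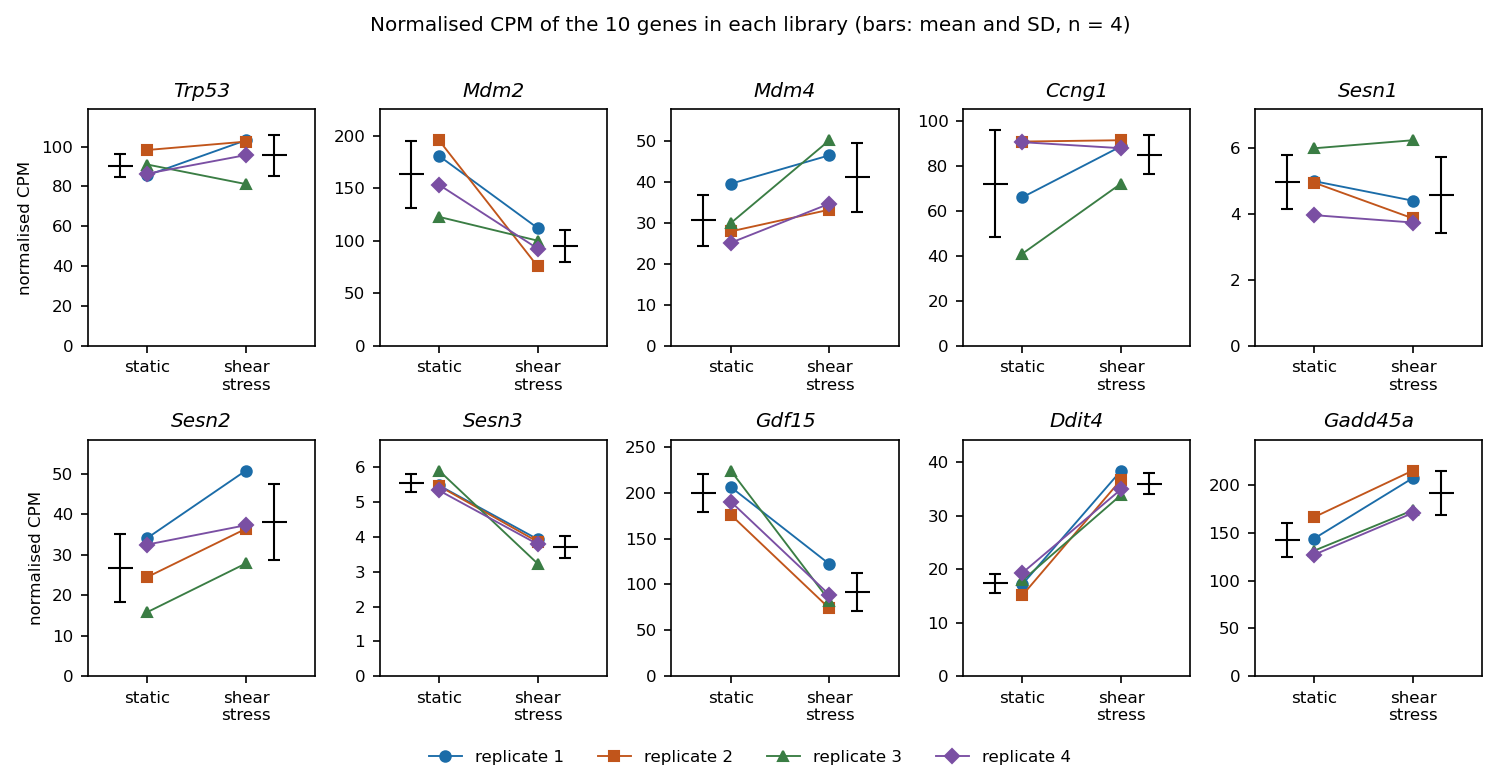
Normalised CPM (vertical axes, from 0) of the 10 genes in each static and shear stress library; lines join libraries with the same replicate number, and bars at the sides give the group mean and SD (n = 4). Ddit4 and Gadd45a lay higher in all 4 shear stress libraries than in any static library, and Gdf15, Mdm2 and Sesn3 lay lower.

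By TPM, the most abundant of the 10 in static libraries were Gdf15, at 219 ± 14.6 TPM (SD, n = 4), and Gadd45a, at 186 ± 34.5 TPM, whose ranges overlapped. Trp53, at 73.9 ± 9.48 TPM, and Mdm2, at 69.1 ± 16.9 TPM, came next and overlapped too. Below them lay Ccng1 at 27.8 ± 10.2, Ddit4 at 15.1 ± 0.992 and Sesn2 at 13.7 ± 4.12 TPM, each overlapping its neighbour in the order. Mdm4 at 5.40 ± 0.976, Sesn3 at 3.62 ± 0.240 and Sesn1 at 2.26 ± 0.334 TPM were the lowest, with no overlap between neighbours. Gdf15 stood at the 95.3 percentile of tested genes and Sesn1 at the 21.8 percentile. Under shear stress Gadd45a was first, at 292 ± 44.7 TPM, and no longer overlapped Gdf15, at 117 ± 20.4 TPM. Trp53, at 91.5 ± 11.1 TPM, no longer overlapped Mdm2, at 47.7 ± 5.66 TPM. Ddit4, at 36.8 ± 2.71 TPM, overlapped Ccng1, at 38.2 ± 4.67 TPM, and no longer Sesn2, at 22.8 ± 4.82 TPM. Mdm4 followed at 8.50 ± 1.67 TPM, and Sesn3, at 2.83 ± 0.275 TPM, now overlapped Sesn1, at 2.49 ± 0.716 TPM.

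Trp53 itself (Gene ID 22059; chromosome 11, 69580348 to 69591873 on GRCm38.p6, the build of all gene positions given here) differed little between the groups. Its static libraries, in the order of replicates 1 to 4, were at 85.6, 98.3, 91.0 and 86.5 CPM, and its shear stress libraries at 103, 103, 81.2 and 95.8 CPM. The groups overlapped, and the pair of replicate 3 went down while the other 3 pairs went up. The log2 fold change was 0.08 ± 0.10 (edgeR adjusted p = 0.520). With library totals it was 0.31 (adjusted p = 0.0516). With the block and library totals together, a setting chosen after seeing the data, Trp53 was called (0.30, adjusted p = 0.00937).

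Mdm2 (Gene ID 17246; chromosome 10, 117688875 to 117710758), the ligase that degrades p53 and a p53 target, fell 1.72-fold. Static libraries were at 181, 196, 123 and 153 CPM and shear stress libraries at 112, 75.5, 99.9 and 92.4 CPM, in the order of replicates 1 to 4. Every shear stress library was below every static one, by a narrow margin between static replicate 3 and shear stress replicate 1. The mean went from 163 ± 32.1 to 94.9 ± 15.3 CPM (-0.78 ± 0.16, edgeR adjusted p = 0.00393). The pairs differed in size, from -1.37 for replicate 2 to -0.29 for replicate 3. The smallest estimate over all alternatives was -0.50, from TPM, and it was still called.

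Mdm4 (Gene ID 17248; chromosome 1, 132986105 to 133030587), the MDM2 relative that blocks p53 without degrading it well, was at 39.6, 27.9, 29.9 and 25.1 CPM in static libraries and 46.5, 33.2, 50.2 and 34.7 CPM under shear stress. The groups overlapped through static replicate 1, the highest of its group. All 4 pairs went up, by between 0.23 and 0.74 on the log2 scale. The log2 fold change was 0.43 ± 0.18 and was not called (edgeR adjusted p = 0.0758), but it was called with the block (0.42 ± 0.11, adjusted p = 0.00728), without static replicate 1 (0.57, adjusted p = 0.0257) and with library totals (0.65, adjusted p = 0.0110).

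Ratios of TPM within a library do not depend on the scaling between libraries. There was about as much Mdm2 as Trp53 in static libraries, with a ratio of 0.933 ± 0.174, and less in shear stress libraries, at 0.531 ± 0.112 (SD, n = 4). The static ratios were 1.09, 1.03, 0.694 and 0.919 and the shear stress ratios 0.574, 0.387, 0.653 and 0.509, so the groups did not overlap. Mdm2 exceeded Mdm4 by 13.0 ± 3.26 times in static and by 5.69 ± 0.687 times in shear stress libraries, again without overlap. The ratio of Mdm4 to Trp53 overlapped between groups, at 0.0741 ± 0.0182 and 0.0951 ± 0.0284. The balance between the inhibitors thus differed between the groups in every pair, while that between Mdm4 and Trp53 went up in 3 of 4 pairs.

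**Figure D3:**
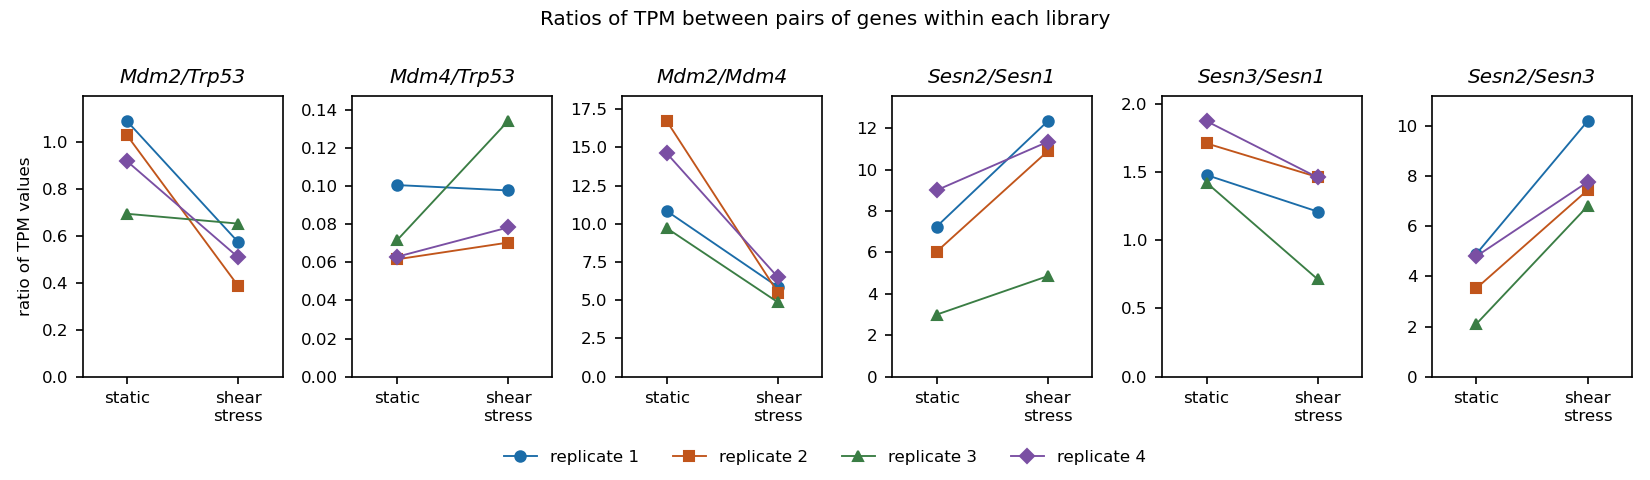
Ratios of TPM (vertical axes, from 0) between pairs of genes in each static and shear stress library; lines join libraries with the same replicate number. Mdm2/Trp53 and Mdm2/Mdm4 were lower and Sesn2/Sesn3 higher in all 4 shear stress libraries than in any static library, and the other 3 ratios overlapped.

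Ccng1 (Gene ID 12450; chromosome 11, 40748552 to 40755309) encodes cyclin G1, a p53 target that brings a phosphatase to MDM2. Its static libraries were at 66.1, 90.9, 41.0 and 90.7 CPM, the widest relative spread of the set, and its shear stress libraries at 88.8, 91.5, 72.2 and 88.0 CPM. Static replicate 3 was the lowest library, and the pairs of replicates 2 and 4 differed by 0.01 and -0.04 on the log2 scale. The log2 fold change was 0.24 ± 0.23 (edgeR adjusted p = 0.414), and 0.04 without static replicate 3. With library totals it was 0.45, and with the block and library totals it was called (0.52, adjusted p = 0.0128).

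Among the sestrins, Sesn3 (Gene ID 75747; chromosome 9, 14276301 to 14326134), known as a FOXO target, fell 1.50-fold. Static libraries were at 5.48, 5.47, 5.91 and 5.34 CPM and shear stress libraries at 3.94, 3.86, 3.23 and 3.79 CPM, without overlap and with little spread. These values rest on 56 to 94 estimated counts per library. The mean went from 5.55 ± 0.249 to 3.71 ± 0.321 CPM (-0.58 ± 0.16, edgeR adjusted p = 0.0129). With library totals the difference was -0.35 and was not called (adjusted p = 0.119).

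Sesn2 (Gene ID 230784; chromosome 4, 132492804 to 132510456), the leucine-sensing sestrin, was at 34.1, 24.4, 15.8 and 32.5 CPM in static libraries and 50.8, 36.4, 27.8 and 37.2 CPM under shear stress. The groups overlapped, since replicate 3 was the lowest library in both, but all 4 pairs went up, by 0.57, 0.57, 0.81 and 0.20 on the log2 scale. The log2 fold change was 0.51 ± 0.25 and was not called (edgeR adjusted p = 0.125). It was called with the block (0.53 ± 0.11, adjusted p = 0.00257) and with library totals (0.73, adjusted p = 0.0444).

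Sesn1 (Gene ID 140742; chromosome 10, 41810574 to 41908436), the sestrin first found as a p53 target, was at 4.99, 4.95, 5.99 and 3.96 CPM in static libraries and 4.40, 3.86, 6.23 and 3.74 CPM under shear stress. Replicate 3 was the highest library in both groups, which overlapped. The log2 fold change was -0.12 ± 0.22 (edgeR adjusted p = 0.667) and turned to 0.10 with library totals. Within libraries, Sesn2 exceeded Sesn3 by 3.84 ± 1.31 times in static and by 8.05 ± 1.49 times in shear stress libraries in TPM, without overlap. The ratio of Sesn2 to Sesn1 went up in all 4 pairs, from 6.32 ± 2.53 to 9.86 ± 3.39, and that of Sesn3 to Sesn1 went down in all 4, from 1.62 ± 0.210 to 1.21 ± 0.353, and both overlapped between groups.

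Gdf15 (Gene ID 23886; chromosome 8, 70629393 to 70632470), the secreted stress hormone, fell the most of the 10. Static libraries were at 207, 176, 225 and 191 CPM and shear stress libraries at 122, 73.8, 82.2 and 88.7 CPM. Every shear stress library was below every static one, and shear stress replicate 1 was the highest of its group. The mean went from 199 ± 20.8 to 91.8 ± 21.2 CPM, a 2.17-fold fall (-1.12 ± 0.16, edgeR adjusted p = 0.000483), and the pairs went down by between 0.76 and 1.45 on the log2 scale. Its log2 fold change lay between -1.27 and -0.90 under the 18 alternatives and was called in each.

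Ddit4 (Gene ID 74747; chromosome 10, 59949675 to 59951770), whose product REDD1 activates the TSC complex and thereby inhibits mTORC1, rose the most of the 10. Static libraries were at 17.2, 15.1, 17.9 and 19.3 CPM and shear stress libraries at 38.5, 36.8, 33.9 and 35.0 CPM. The spread within each group was small against the gap between them. The mean went from 17.4 ± 1.74 to 36.0 ± 2.01 CPM, a 2.07-fold rise (1.05 ± 0.11, edgeR adjusted p = 0.000109). It was called under all 18 alternatives, with log2 fold changes between 0.99 and 1.28. Its paralog Ddit4l was at 8.72 ± 2.60 CPM in static libraries and 9.49 ± 1.89 CPM under shear stress (adjusted p = 0.711).

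Gadd45a (Gene ID 13197; chromosome 6, 67035096 to 67037407), which encodes a growth arrest protein that binds PCNA and the kinase MEKK4, rose 1.35-fold. Static libraries were at 144, 167, 131 and 127 CPM and shear stress libraries at 208, 215, 174 and 171 CPM. The highest static library, replicate 2, was only just below the lowest shear stress one, and replicate 2 was also the highest under shear stress. The mean went from 142 ± 17.7 to 192 ± 22.9 CPM (0.43 ± 0.12, edgeR adjusted p = 0.0146), and the pairs went up by between 0.37 and 0.53 on the log2 scale. Among its exon bases in the GENCODE M21 models 19.1% overlap an antisense transcript, E230016M11Rik, and whether counting used the strand is not given in the sources used here. With library totals its log2 fold change was 0.66.

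**Figure D4:**
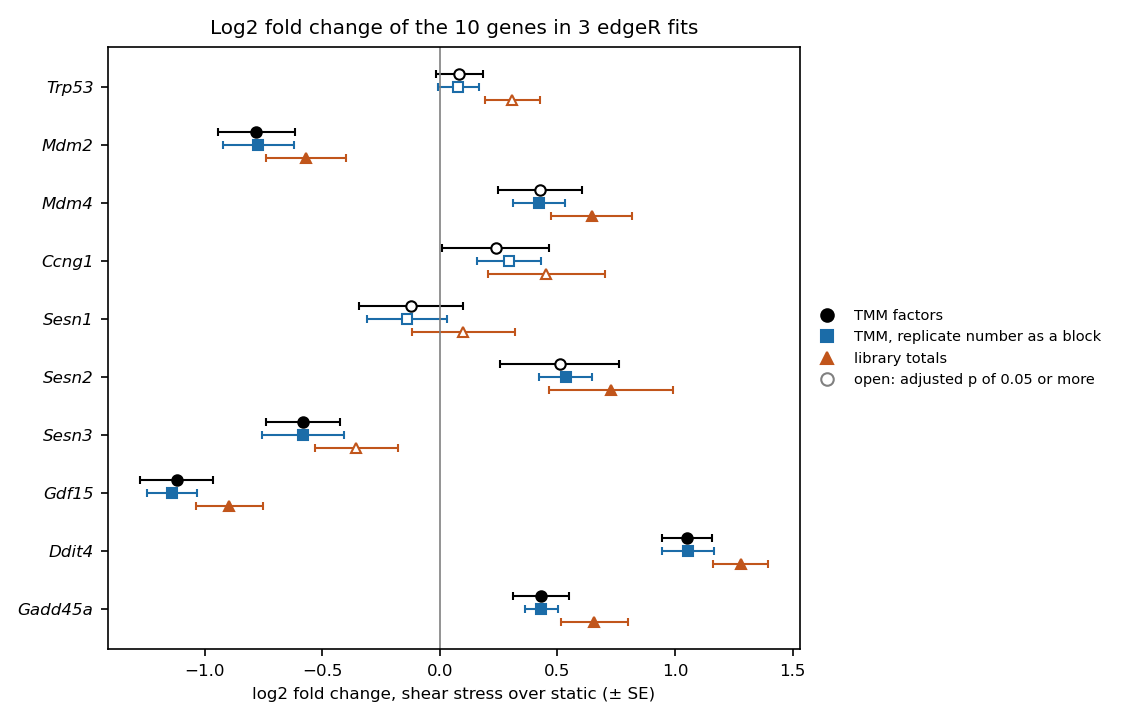
Log2 fold change of shear stress over static (horizontal axis) with its standard error for the 10 genes in 3 edgeR fits; filled symbols have an adjusted p under 0.05. Library totals move every gene to the right: Sesn3 loses its call, Mdm4 and Sesn2 gain one, and Sesn1 changes sign.

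In a list of the other GADD45 genes and further growth arrest genes more fell than rose, though Gadd45b fell and Gadd45g rose. Of 15 listed, 13 were tested, and 2 rose and 9 fell, against 24.9% and 23.7% of all tested genes. Their median log2 fold change was -0.80 against -0.01 over all tested genes. With library totals 3 rose and 8 fell, against 35.4% and 13.1% of all genes. The list was chosen with earlier results of these data known, and it was not tested as a set. Gadd45b, the family member known from NF-kappa-B and TGF-beta signalling, fell 2.71-fold from 48.3 ± 16.8 to 17.8 ± 6.84 CPM (edgeR adjusted p = 0.00466), so that it and Gadd45a moved in opposite directions. Gadd45g rose 2.04-fold from 31.1 ± 10.9 to 63.3 ± 13.7 CPM (adjusted p = 0.00747). Its groups overlapped, since static replicate 2, at 47.4 CPM, was above shear stress replicate 1, at 43.6 CPM. Every pair of replicate numbers went up, and with the replicate block its edgeR adjusted p was 0.000591. Tob2, an antiproliferative adaptor of the deadenylase complex, fell 3.93-fold, Ccng2, the FOXO-responsive relative of Ccng1, fell 2.69-fold and Gas2 fell 2.31-fold. The other rise was Gas1, from 0.283 ± 0.118 to only 2.68 ± 0.290 CPM.

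Of 35 other p53 targets, all tested, 6 rose and 8 fell, against 24.9% and 23.7% of all tested genes, and their median log2 fold change was 0.15. With the replicate block 9 rose and 12 fell, against 30.1% and 31.0% of all genes. With library totals 13 rose and 5 fell, near the 35.4% and 13.1% of all genes under that scaling. With upper quartile factors 11 rose and 5 fell, where 3652 and 1982 of all 11747 genes did. Cdkn1a, the cell cycle inhibitor p21 and the best known target, was at 273, 481, 216 and 384 CPM in static libraries and 216, 228, 266 and 242 CPM under shear stress, and was not called (-0.51 ± 0.22, edgeR adjusted p = 0.0852). Sfn, which encodes the arrest protein 14-3-3 sigma, rose 2.80-fold to 24.2 ± 6.66 CPM and Apaf1, the apoptosome scaffold, rose 1.51-fold to 18.9 ± 0.707 CPM. Ppm1d, the phosphatase that shuts off p53 signalling, fell 2.50-fold to 5.87 ± 0.722 CPM and Polk, a translesion polymerase, fell 1.67-fold to 17.1 ± 2.26 CPM.

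Of 27 kinases, ligases, cofactors and relatives of p53, 24 were tested, and 3 rose and 7 fell. Of all tested genes 48.6% were called, 24.9% as higher and 23.7% as lower. With library totals 5 rose and 5 fell, against 35.4% and 13.1% of all genes. The acetyltransferase gene Crebbp fell 2.22-fold from 42.3 ± 3.89 to 19.0 ± 1.31 CPM and the kinase gene Hipk2 fell 2.47-fold from 129.9 ± 38.0 to 52.5 ± 1.47 CPM. The deacetylase gene Sirt1 fell 2.24-fold, whereas Kat5, the acetyltransferase TIP60, rose 2.40-fold from 13.8 ± 1.99 to 33.2 ± 1.87 CPM. The p53 relatives Trp63 and Trp73 and the MDM2 inhibitor gene Cdkn2a had at most 1 estimated count in any library and were not tested.

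Around the sestrins and REDD1, 34 genes were tested, and 8 rose and 11 fell. They were genes of the GATOR, TSC, AMPK and mTORC1 complexes and their partners, with Ddit4l, the paralog of Ddit4, among them. Of all tested genes 48.6% were called, 24.9% as higher and 23.7% as lower. With library totals 11 rose and 8 fell, against 35.4% and 13.1% of all genes. Rragc, one of the GTPases that bring mTORC1 to the lysosome, fell 2.05-fold from 126 ± 13.4 to 61.5 ± 0.745 CPM, and Akt1s1, the mTORC1 inhibitor PRAS40, fell 1.57-fold. The AMPK subunit genes Prkag2 and Prkab2 rose 2.16-fold and 1.83-fold, to 40.6 ± 4.79 and 23.9 ± 3.07 CPM. A catalytic subunit gene, Prkaa2, named after its values were seen, fell from 125 ± 40.6 to 62.4 ± 24.3 CPM (edgeR adjusted p = 0.0181). Its groups overlapped, but it was lower under shear stress in every pair of replicate numbers. With the replicate block its edgeR adjusted p was 6.0e-06. The other catalytic subunit gene, Prkaa1, was at 43.7 ± 5.40 CPM in static libraries and 45.3 ± 4.12 CPM under shear stress and was not called (edgeR adjusted p = 0.730).

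In the lists for pathways known to drive Sesn2, Sesn3, Ddit4 or Gdf15, called falls outnumbered called rises. Of all tested genes 24.9% rose and 23.7% fell, or 35.4% and 13.1% with library totals. In both directions together, 10 of 19 tested ATF4 genes and 10 of 16 FOXO genes were called, against 48.6% of all tested genes. The lists were chosen with earlier results of these data known, and no list was tested as a set. Of 20 ATF4 and integrated stress response genes, 19 were tested, and 2 rose and 8 fell (median -0.30), or 2 and 5 with library totals. Atf4 fell 1.33-fold from 439 ± 46.1 to 329 ± 24.6 CPM (edgeR adjusted p = 0.00808), Atf3 fell 3.40-fold, Ppp1r15a fell 3.64-fold and Psat1 fell 1.43-fold. With library totals Atf4 was not called (-0.19, adjusted p = 0.159). Trib3, an ATF4 target that inhibits AKT, rose 2.51-fold from 49.2 ± 10.5 to 124 ± 12.9 CPM, as Ddit4 did, and Ddit3 was at 26.2 ± 7.90 and 23.6 ± 13.4 CPM (adjusted p = 0.768). Of 16 FOXO factors and targets, 1 rose and 9 fell (median -0.74), or 2 and 7 with library totals. Foxo3 fell 2.56-fold, Foxo4 1.72-fold, Bcl6 4.39-fold and Cited2 2.05-fold.

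Of 20 genes that respond to hypoxia-inducible factor or glucocorticoids, the other known inducers of Ddit4, 2 rose and 8 fell (median -0.54). Of all tested genes 24.9% rose and 23.7% fell. With library totals 3 of the 20 rose and 5 fell, against 35.4% and 13.1% of all genes. Fkbp5, a glucocorticoid-induced chaperone gene, rose 3.36-fold from 18.9 ± 3.74 to 63.6 ± 1.04 CPM (edgeR adjusted p = 5.5e-05). The glucocorticoid receptor gene Nr3c1 fell 1.68-fold, its target Klf9 fell 1.92-fold, and Vegfa, a hypoxia target, fell 1.81-fold. The other rises in the ATF4, FOXO and hypoxia and glucocorticoid lists, named after their values were seen, were Mthfd2 (1.38-fold), Foxo1 (1.54-fold) and the hypoxia-responsive glucose transporter gene Slc2a1, which went from 52.4 ± 6.46 to 86.6 ± 21.4 CPM (edgeR adjusted p = 0.00776).

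**Figure D5:**
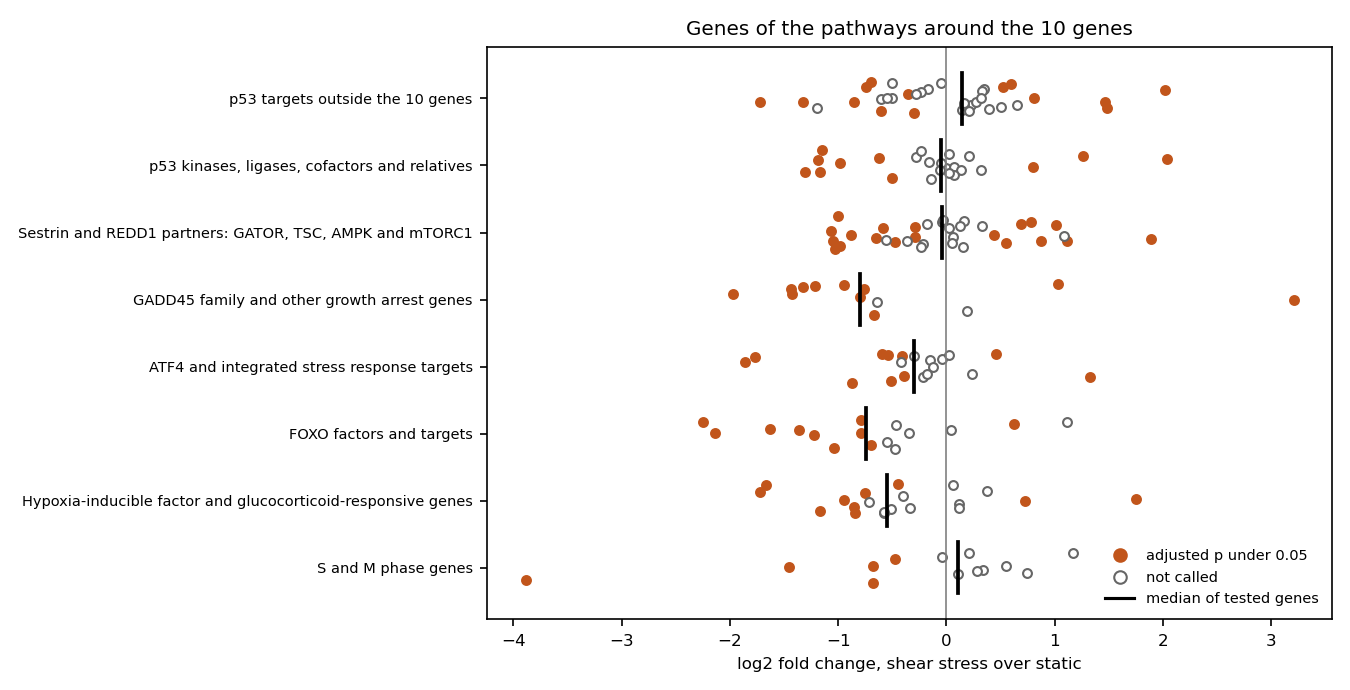
Log2 fold change of shear stress over static (horizontal axis) for the tested genes of 8 lists around the 10 genes; filled points have an adjusted p under 0.05, open points do not, and black bars are list medians. Growth arrest, FOXO, and hypoxia and glucocorticoid genes have medians of -0.80, -0.74 and -0.54, and the p53 targets a median of 0.15 with calls in both directions. The median over all tested genes was -0.01, and the lists were chosen with earlier results of these data known.

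The genes whose profiles over the 8 libraries were most like those of the 10 were sought among 8011 tested genes. These had a mean over all libraries of at least 10 CPM. The 10 genes themselves and genes with Gm-number or Rik names were left out. Likeness was taken as the smallest root mean square difference of log2 CPM after each profile was centred on its mean. Nearest to Gdf15 were Cdc42ep1 (0.109) and Frs2 (0.153), nearest to Ddit4 were Snrpa (0.0607) and Pstk (0.0701), and nearest to Gadd45a were Sap30bp (0.0630) and Snapc4 (0.0679). Mdm2 was nearest to Pvr (0.133) and Mcl1 (0.136), Sesn3 to Clpx (0.0552) and Sdf2 (0.0665), and Sesn2 to Ikbkg (0.126) and Ift52 (0.150). The flat profile of Trp53 lay within 0.0530 of Eif4a3 and 0.0546 of Polr2f. Mdm4 was nearest to Ptar1 (0.147), Ccng1 to Zfp207 (0.131) and Sesn1 to Rmdn2 (0.118). None of the nearest genes was a member of the lists above.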

How the data were processed

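The 8 files give 3 measures for each gene, namely an estimated count, TPM and FPKM. Per the submitters' processing notes, HISAT, Bowtie2 and RSEM were used with GRCm38 (mm10), while versions, annotation and strand setting are not given in the sources used. The expected counts, deposited by the authors, were rounded to whole numbers. The authors' TPM served for levels between genes, ratios and 1 kind of alternative, and the deposited FPKM was not used.

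Genes were kept with filterByExpr, scaled with TMM factors and tested by quasi-likelihood in edgeR 4.0.16 (R 4.3.3), with Benjamini-Hochberg adjustment over all 11747 genes. Standard errors were derived from each log2 fold change and its F statistic. Alternatives were DESeq2 1.42.0, other factors and filters, limma 3.58.1 on log2(TPM + 1) and log2(TPM + 0.1), a replicate block and leaving out each library. The procedure was also run on simulated counts in which few genes changed and libraries were not paired. That run cannot speak to the choice of scaling or to the replicate block. The members and gene lists were chosen with earlier results of these data known. Named by rule were all 10 members, up to 4 called genes per list by smallest p, 7 genes in every case (Gfral was not analysed here) and the nearest profiles. Further list genes, such as Rrm2, Aurkb and those marked as named after their values were seen, fall outside this rule.

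After removal of group means, libraries with the same replicate number correlated at r = 0.679, 0.642, 0.560 and 0.467 over 8446 genes and those with different numbers at -0.018 or less, so the numbers in the titles pair the libraries. The main edgeR fit did not use this pairing and called 48.6% of all tested genes. The fit with the replicate block used it and called 61.1%. What a number stands for is not stated.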

Additional observations from a re-analysis of the deposited data

Results flagged for a closer look

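Examined were the 10 genes and the list genes named by the rule above. Genes named after their values were seen, and Rrm2 and Aurkb, were not examined. Of 98 groups of 4 libraries, 6 held a library that stood apart. This was judged by its gap to the nearest other library as a share of the range (Dixon's critical value). Chance gives about 1 in 20. None of these was in one of the 10 genes. Ddit4l was at 4.87 CPM in static replicate 1, against 9.55 to 10.5 CPM in the other static libraries. Gadd45g was at 47.4 CPM in static replicate 2, against 25.3 to 25.8 CPM. Gas1 was at 2.25 CPM in shear stress replicate 3, against 2.78 to 2.87 CPM. Ppp1r15a was at 105 CPM in shear stress replicate 1, against 70.3 to 74.4 CPM. In static replicate 4, Foxo4 was at 16.8 CPM, against 20.2 CPM in the others, and Klf9 was at 44.9 CPM, against 67.8 to 71.0 CPM.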

How the results depend on the processing

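Mdm2, Gdf15, Ddit4 and Gadd45a kept their direction and call under all 18 alternatives. Sesn1 turned upward with upper quartile factors (0.0133), library totals (0.0996), TPM with a pseudocount of 1 (0.0811) or 0.1 (0.105), and the block with library totals (0.0852), and was called in none. Sesn3 was not called with library totals, TPM (-0.27 and -0.35) or the block with library totals (-0.36). Sesn1 and Sesn3 were not tested with a filter at a mean of 5 CPM. Members called numbered 7 with the replicate block, 8 with the block and library totals (chosen after seeing the data), and 5 to 6 with 1 library left out. Over all genes, 7176 were called with the block and 4660 to 5518 with 1 library left out. Called S and M phase genes numbered 5 of 13 tested, where 48.6% of all genes were called. They numbered 7 with the replicate block (2 higher and 5 lower), where 61.1% of all genes were called. With upper quartile factors or library totals 3 of the 13 were called, against 5634 and 5696 of all 11747 genes. No filter also gave 3, against 6065 of 17102 genes. A mean of at least 5 CPM gave 1, against 4491 of 9345 genes. Either TPM setting gave 1, against 4880 and 4845 of 10611 genes. The 5 CPM filter left out list genes of low level, such as Mki67 at 2.30 and 0.839 CPM, so its count is not over the same 13. With 1 library left out, called S and M phase genes numbered 2 to 6. The block changed the call of no member other than Mdm4 and Sesn2. Sesn1 and Sesn3 rest on the fewest counts, 56 to 108 per library.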

Other observations

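Of 18 genes of DNA replication and mitosis, 13 were tested, and 5 fell and none rose, with a median log2 fold change of 0.11. With the replicate block 2 of the 13 rose, Rrm2 and Aurkb, and 5 fell, against 30.1% and 31.0% of all genes. With library totals 1 rose and 2 fell, against 35.4% and 13.1% of all genes. The replication genes Pcna, whose product is bound by both p21 and GADD45A, and Mcm6 fell 1.60-fold each, from 89.3 ± 27.1 to 56.0 ± 8.36 CPM and from 293 ± 101 to 184 ± 34.1 CPM (edgeR adjusted p = 0.0222 and 0.0435). With library totals neither was called (adjusted p = 0.118 and 0.173). The mitotic cyclin gene Ccnb2 fell from 5.46 ± 1.04 to 0.360 ± 0.150 CPM and the proliferation marker Mki67 from 2.30 ± 0.446 to 0.839 ± 0.157 CPM. Only 2 were called when static replicate 3, or either shear stress replicate 1 or 4, was left out, and 3 when shear stress replicate 3 was.

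Of the receptor of GDF15, only the co-receptor gene Ret is in the files, at 0 to 0.360 CPM in static and 0.626 to 1.19 CPM in shear stress libraries (edgeR adjusted p = 0.00800).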
